A study of Homo sapiens with 16 samples.

Results

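The genes described here are 34 components of the extracellular matrix other than collagens: adhesive and matricellular glycoproteins, elastic fibre and microfibril proteins, lysyl oxidases, matrix proteoglycans with a hyaluronan synthase, and the nidogens with a matrilin. They were taken by their platform symbol from a named list, each with the single-symbol probe set of highest mean over the 16 arrays, and they are 34 of the 18239 genes that the arrays name in this way. Of them, 32 lay above the lowest 25% of genes by mean level and were tested. SRPX2 and FBN2 lay in that lowest 25% and were not tested. The cells were SK-N-SH, a line from a human neuroblastoma, and their RNA was read on U219 gene expression arrays of 1 colour, 4 arrays for each of 4 groups. Cells had received 10 µM risperidone, an antipsychotic that acts as an antagonist at dopamine and serotonin receptors, for 6 h, 24 h or 48 h, and the reference cells are labelled untreated. The protocol gives all cells the same growth to near confluence and describes the reference cells as having received the DMSO solvent, with no harvest time stated. The labels call the 4 samples of a group biological replicates but name no separate cultures, and the p-values therefore rest on the spread among the 4 samples, which may be technical. The 3 comparisons with untreated cells share the same 4 reference arrays, and the number of arrays limits the precision.

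Matrix glycoproteins and proteoglycans are secreted and assembled outside the cell. Fibronectin is pulled into fibrils by integrins on the cell surface, elastin is laid down on fibrillin microfibrils and joined by lysyl oxidases, and versican with hyaluronan makes a loose coat around the cell. Thrombospondins, tenascin-C, periostin and SPARC are matricellular proteins, which alter how cells hold to the matrix more than they build it. In neuroblastoma cultures such genes are known as features of flat, substrate-adherent, mesenchymal cells, which grow beside neuroblast-like, adrenergic cells in the SK-N-SH line.

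Fibronectin, periostin and both thrombospondins stood among the strong falls described below, while MFAP2 was higher in treated cells, and the stretches before the starts of these 5 genes are printed so that each can be seen beside its values. The sequences come from RefSeq on GRCh38.p14, cover the 250 bases before the first listed start, and run from 5′ to 3′ along the strand of the gene. Capitals mark matches on either strand to GGAATG, the letters bound by TEAD factors, to TGANTCA, those of AP-1, to TGACGTCA, the cAMP response element, and to TATAAA. Matches to GGGCGG, the SP1 letters, were counted but not put in capitals. All 5 printed windows hold a match in capitals, and they do not stand for all strong falls. The windows of SRPX, VCAN, NID1 and NID2, which also fell strongly, hold only GGGCGG of these letters. FN1 lies at chr2:215436069-215436318, reverse strand. THBS1 lies at chr15:39580829-39581078, forward strand. THBS2 lies at chr6:169253847-169254096, reverse strand. POSTN lies at chr13:37598769-37599018, reverse strand. MFAP2 lies at chr1:16981584-16981833, reverse strand.
FN1: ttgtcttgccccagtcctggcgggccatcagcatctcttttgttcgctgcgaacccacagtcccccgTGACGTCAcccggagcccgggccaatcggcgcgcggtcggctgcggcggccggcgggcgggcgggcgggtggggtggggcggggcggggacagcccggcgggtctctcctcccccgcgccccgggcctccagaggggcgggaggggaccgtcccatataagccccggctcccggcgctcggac
THBS1: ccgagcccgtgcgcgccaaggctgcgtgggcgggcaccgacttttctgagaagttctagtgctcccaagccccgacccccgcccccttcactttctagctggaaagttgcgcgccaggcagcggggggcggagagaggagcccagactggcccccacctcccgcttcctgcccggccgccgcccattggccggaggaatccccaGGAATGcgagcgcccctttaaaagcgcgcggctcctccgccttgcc
THBS2: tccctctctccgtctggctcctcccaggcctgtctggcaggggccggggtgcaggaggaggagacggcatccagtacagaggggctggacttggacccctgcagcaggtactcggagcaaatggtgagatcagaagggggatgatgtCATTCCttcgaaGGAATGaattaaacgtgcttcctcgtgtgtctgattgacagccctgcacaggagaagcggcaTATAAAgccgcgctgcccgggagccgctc
POSTN: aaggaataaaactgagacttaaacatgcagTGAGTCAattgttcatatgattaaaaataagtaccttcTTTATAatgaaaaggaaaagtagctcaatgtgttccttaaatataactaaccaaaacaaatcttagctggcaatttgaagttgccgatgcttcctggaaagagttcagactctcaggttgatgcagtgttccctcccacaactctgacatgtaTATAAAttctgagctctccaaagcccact
MFAP2: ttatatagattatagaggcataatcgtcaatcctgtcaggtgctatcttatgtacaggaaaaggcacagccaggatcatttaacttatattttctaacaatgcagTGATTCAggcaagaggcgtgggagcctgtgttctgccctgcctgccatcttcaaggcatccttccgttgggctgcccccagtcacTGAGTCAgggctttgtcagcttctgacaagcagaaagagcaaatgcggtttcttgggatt
The window of FN1 holds 1 cAMP response element, that of THBS1 holds 1 GGAATG, and that of THBS2 holds the same letters on both strands, as CATTCC and GGAATG, with 6 bases between them. POSTN carries 1 AP-1 match, and MFAP2 carries 2.

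A RefSeq window was at hand for 25 of the 34 genes, 18 of which belong to genes that were lower at 6 h. GGAATG was found in 5 of these 25 windows (20%: SPARC, THBS1, THBS2, FBN1 and SRPX2), against 11.9% of the windows of 27305 genes. TGANTCA was found in 4 (16%: POSTN, MFAP2, ECM1 and SRPX2), against 6.6% of all windows. TGACGTCA was found in 2 (8%: FN1 and LTBP1), against 1.77% of all. TATAAA was found in 4 (16%: THBS2, POSTN, ECM1 and FMOD), against 11.1% of all, and GGGCGG in 17 (68%), against 42.3% of all. The serum response element known as the CArG box was found in 0 of the 25 and in 1.14% of all windows. Among the 18 windows of genes lower at 6 h, GGAATG was found in 4 and TGANTCA in 1, that of POSTN. In the same 18, TGACGTCA was found in 2, TATAAA in 2, GGGCGG in 12 and the CArG box in 0. No matches other than those to GGGCGG shared a base within a window. These matches are a description of the letters, and no factor was measured at these sites.

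Array medians lay between 4.5 and 4.62 on the log2 scale, arrays of a group correlated at 0.996 or more over the genes tested, and the first principal component (74.8% of the variance) set the untreated arrays apart from all 12 treated ones.

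Most of the 32 tested genes were lower in risperidone-treated cells at each time. At an adjusted p of 0.05 (limma with Benjamini-Hochberg adjustment over all 13680 genes tested), 26 were lower and 2 higher at 6 h, where 16.7% of all genes tested were lower and 36.6% higher. At 24 h 25 were lower and 1 higher, beside 16.9% and 35.3% of all genes. At 48 h 24 were lower and 3 higher, beside 21% and 36% of all genes. The split over all genes depends on the scaling, since 5008 genes were higher and 2283 lower at 6 h, against 3151 and 3223 after cyclic loess. At 24 h these counts were 4823 and 2311, against 3183 and 3247 after cyclic loess, and at 48 h 4920 and 2874, against 3707 and 3858. The median change of the 32 genes was -1.74 log2 units at 6 h, -1.55 at 24 h and -1.52 at 48 h, beside 0.09, 0.09 and 0.08 over all genes tested. The genes were chosen with earlier results of these data known, so the gap to all genes is a description and no independent support. A fall of more than 1 log2 unit was seen for 23, 22 and 21 of the 32 genes at 6, 24 and 48 h, beside 4.18%, 3.9% and 4.46% of all genes. A fall of more than 3 log2 units was seen for 9, 7 and 8 of them, beside 0.709%, 0.497% and 0.592%. All arrays of the treated cells lay below all untreated arrays for 26, 25 and 24 genes, beside 14.8%, 15.2% and 17.8% of all genes. The filter on dim genes used the mean over all 16 arrays, and the lowest mean kept was 3.65. POSTN had means below 3.65 at all 3 times and so passed the filter only through its untreated arrays. HAS2 had means of 3.45, 3.56 and 3.81 at 6, 24 and 48 h. Together its treated arrays averaged below 3.65, so it too passed only through its untreated arrays. LOXL4 at 6 h also had a mean below 3.65. The falls of these genes are part of the counts above. Those of POSTN and HAS2 are also part of the counts over 3 log2 units. In these bulk samples, fewer cells of a type and less RNA per cell cannot be told apart.

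The same genes made up most of these counts. Lower at all 3 times were 24 genes, a pattern that 13% of all genes tested had. By the same threshold, SPOCK1 was lower at 6 and 24 h (1.62% of all genes), LOXL4 was lower at 6 h (0.936%), ELN was higher at 6 h (3.76%), MFAP2 was higher at all 3 times (24%), and FBLN1 and FBLN2 were higher at 48 h (6.6%). ECM1 and FMOD passed the threshold at no time (27.9%). Among the falls, adjusted p was at most 0.00649 at 6 h (LOXL4), 0.000469 at 24 h and 0.000355 at 48 h. Standard errors of the 32 genes, taken from limma's pooled spread and given after ± below, lay between 0.06 and 0.16 log2 units.

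**Figure D1:**
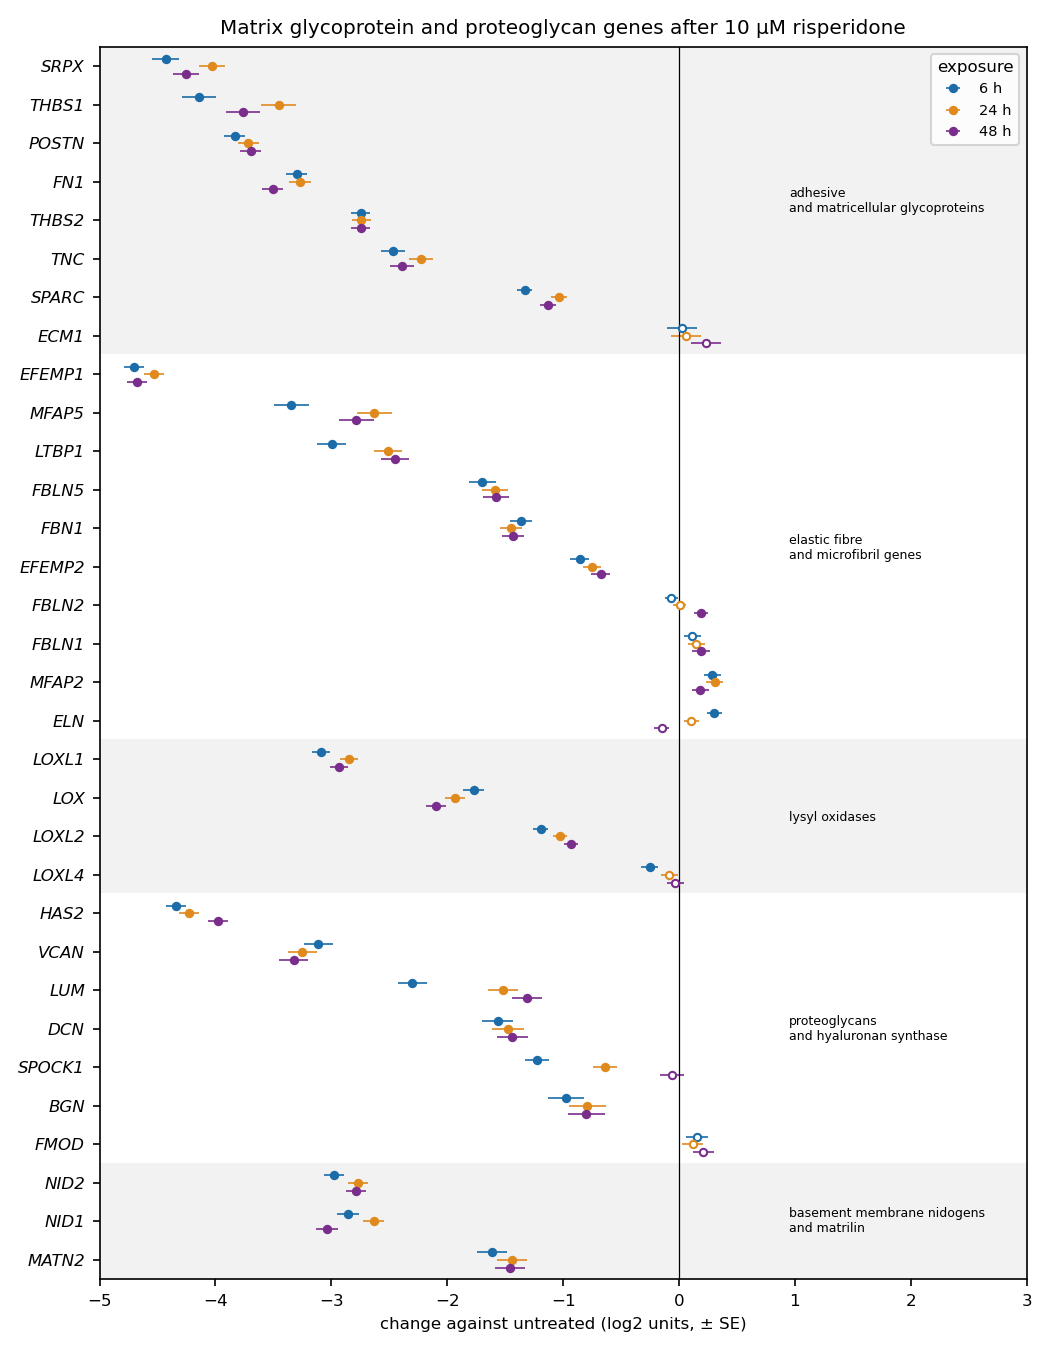
The 32 tested genes run down the page by role group, and each point is the log2 change of risperidone-treated against untreated cells at 6, 24 or 48 h (4 arrays a group) with limma's standard error as a bar. Filled points passed an adjusted p of 0.05 and open points did not; the falls reach -4.70 log2 units for EFEMP1, and the points right of 0 that passed belong to ELN, MFAP2, FBLN1 and FBLN2.

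Markers of the cell types that a culture could hold were read from the same arrays. Of 11 measured adrenergic neuroblast-like markers, all 11 were higher at 6 h and 10 at 24 and 48 h, beside 36.6%, 35.3% and 36% of all genes tested. Their median change at 6 h was 0.29 log2 units and the smallest was 0.12. Markers were not read under other scalings, on which the share of higher genes depends. The summed linear level of these 11 was 41600 to 42900 at 6 h, 43100 to 44300 at 24 h and 46300 to 47400 at 48 h. In untreated cells it was 32400 to 34000. Of 11 tested mesenchymal substrate-adherent markers, 10 were lower at each time, beside 16.7%, 16.9% and 21% of all genes tested at 6, 24 and 48 h. Their median change at 6 h was -3.185 log2 units. The summed level of all 12 was 10900 to 11600 at 6 h, 11100 to 11300 at 24 h and 11100 to 11800 at 48 h. In untreated cells it was 20600 to 24000. This sum weighs the brightest probe sets most, here those of VIM and TWIST1, and is no measure of a share of cells. PRRX1 and TWIST2, transcription factors of mesenchymal cells, had means of 3.98 and 3.22 at 6 h, against 9.07 and 5.69 in untreated cells. All treated arrays of TWIST2 lay below 3.65, the lowest mean over all arrays of any tested gene. TWIST2 therefore passed the filter on dim genes only through its untreated arrays, and its fall, part of the count of lower markers, depends on where the scale ends. TWIST1, which neuroblastoma cells also express, did not pass at 6 h (-0.04 ± 0.05 log2 units, adjusted p = 0.492) or 24 h (-0.02 ± 0.05), and it rose by 0.17 ± 0.05 log2 units at 48 h (adjusted p = 0.00562). Vimentin, VIM, fell by 1.24 ± 0.06 log2 units at 6 h. CD44 stands both in this list and among the hyaluronan genes below.

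Most markers of other cell types were dim, with summed linear levels of at most 102 (Schwann cells and glia), 78.2 (endothelium), 109 (leukocytes) and 69.5 (epithelium) in any array. S100B and CD68 stood above the array medians in untreated cells, and both moved. S100B, a calcium-binding protein of glia, read 5.90, 5.95, 5.91 and 5.94 at 6 h, against 5.24, 5.40, 5.27 and 5.37 in untreated cells, and was higher at all 3 times. Among the 3 tested Schwann cell and glia markers, SOX10 was also higher at 24 h, by 0.27 log2 units, and the summed level of the 4 measured ran from 92.6 to 99.1 at 6 h, against 72.4 to 76.6 in untreated cells. CD68, a lysosomal protein of macrophages that other cells also make, read 4.58, 4.51, 4.28 and 4.37 at 6 h, against 5.89, 5.77, 6.29 and 5.81 in untreated cells, and was lower at all 3 times. It was 1 of 2 tested leukocyte markers, whose 4 measured members summed to between 50.9 and 57.1 at 6 h, against 83.7 to 109 in untreated cells. PTPRC and ITGAM, which define leukocytes, were too dim to test. Of 4 tested endothelial markers, KDR was higher at 6 h (0.21 log2 units) and TIE1 at 48 h (0.20), and of 2 tested epithelial markers KRT8 was lower at all 3 times, with a mean of 3.63 at 6 h, against 4.02 in untreated cells. The RMA scale has no zero. The part of these markers and of the adrenergic and mesenchymal ones in the changes of the matrix genes was not tested.

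Of the 9 adhesive and matricellular glycoproteins, 8 were tested and 7 were lower at every time, with a median change of -3.02 log2 units at 6 h, -3.01 at 24 h and -3.13 at 48 h. FN1, fibronectin, the fibril-forming ligand of integrins, had values of 7.32, 7.15, 6.98 and 6.80 on the log2 scale at 6 h, against 10.28, 10.41, 10.40 and 10.36 in untreated cells. Its values were 7.13, 7.10, 6.99 and 7.16 at 24 h and 6.63, 6.86, 6.93 and 7.0 at 48 h. No treated array came within 2 log2 units of the untreated arrays, and the change was -3.30 ± 0.09 log2 units at 6 h, -3.27 ± 0.09 at 24 h and -3.51 ± 0.09 at 48 h. THBS1, thrombospondin 1, a matricellular protein that binds cell surface receptors and latent TGF-beta, stood at 5.46, 5.19, 4.79 and 5.05 at 6 h, against 8.85, 9.29, 9.55 and 9.37 in untreated cells. At 24 h it stood at 5.90, 5.87, 5.55 and 5.92, and at 48 h at 5.45, 5.76, 5.33 and 5.47. The groups did not overlap, and THBS1 fell, with changes of -4.14 ± 0.15 log2 units at 6 h, -3.46 ± 0.15 at 24 h and -3.76 ± 0.15 at 48 h.

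POSTN encodes periostin, a matricellular protein of connective tissue that binds collagen and fibronectin. Its arrays read 3.14, 3.17, 3.28 and 3.13 at 6 h, against 6.78, 6.98, 7.36 and 6.94 in untreated cells, and all treated arrays were near the bottom of the scale. The later readings were 3.29, 3.21, 3.37 and 3.33 at 24 h and 3.33, 3.20, 3.29 and 3.46 at 48 h. The group mean of POSTN lay below 3.65, the lowest mean over all arrays of any tested gene, at all 3 times, so the measured changes of -3.84 ± 0.09, -3.72 ± 0.09 and -3.70 ± 0.09 log2 units depend on where the scale ends. SRPX, a secreted protein with sushi repeats, had the largest measured change of this group, and its order against POSTN, which ended at the bottom of the scale, is not known. It read 4.73, 4.67, 4.60 and 4.40 at 6 h, against 8.79, 8.91, 9.29 and 9.13 in untreated cells. With 5.23, 5.08, 4.83 and 4.86 at 24 h and 4.81, 4.59, 4.74 and 4.95 at 48 h, its arrays stayed more than 3 log2 units below the untreated ones. The fall was 21.6-fold at 6 h, 16.3-fold at 24 h and 19.1-fold at 48 h on the linear scale, from changes of -4.43 ± 0.11, -4.03 ± 0.11 and -4.26 ± 0.11 log2 units.

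THBS2, thrombospondin 2, the close relative of THBS1 with the paired GGAATG letters shown above, changed by -2.75 ± 0.08 log2 units at 6 h, -2.74 ± 0.08 at 24 h and -2.75 ± 0.08 at 48 h. The treated means of THBS2 (3.90, 3.91 and 3.90) lay near the bottom of the scale, which may limit these changes. TNC, tenascin-C, a glycoprotein of developing and healing tissue, changed by -2.47 ± 0.10, -2.23 ± 0.10 and -2.39 ± 0.10 log2 units at the same times. SPARC, a collagen-binding matricellular protein, changed by -1.33 ± 0.07, -1.04 ± 0.07 and -1.13 ± 0.07 log2 units, the smallest falls among the 7. ECM1 (extracellular matrix protein 1), a secreted glycoprotein, did not pass the threshold: its change was 0.03 log2 units at 6 h (95% interval -0.25 to 0.30, adjusted p = 0.887) and 0.23 ± 0.13 at 48 h (adjusted p = 0.143). Without 48 h replicate 2 the 48 h change passed (0.39, adjusted p = 0.00334), and probe sets of ECM1 disagreed in direction. SRPX2, a relative of SRPX, had arrays between 3.33 and 3.46 at 6 h, against 3.38 to 3.63 in untreated cells. At 24 h they lay between 3.35 and 3.38 and at 48 h between 3.15 and 3.74, and SRPX2 was too dim to test.

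**Figure D2:**
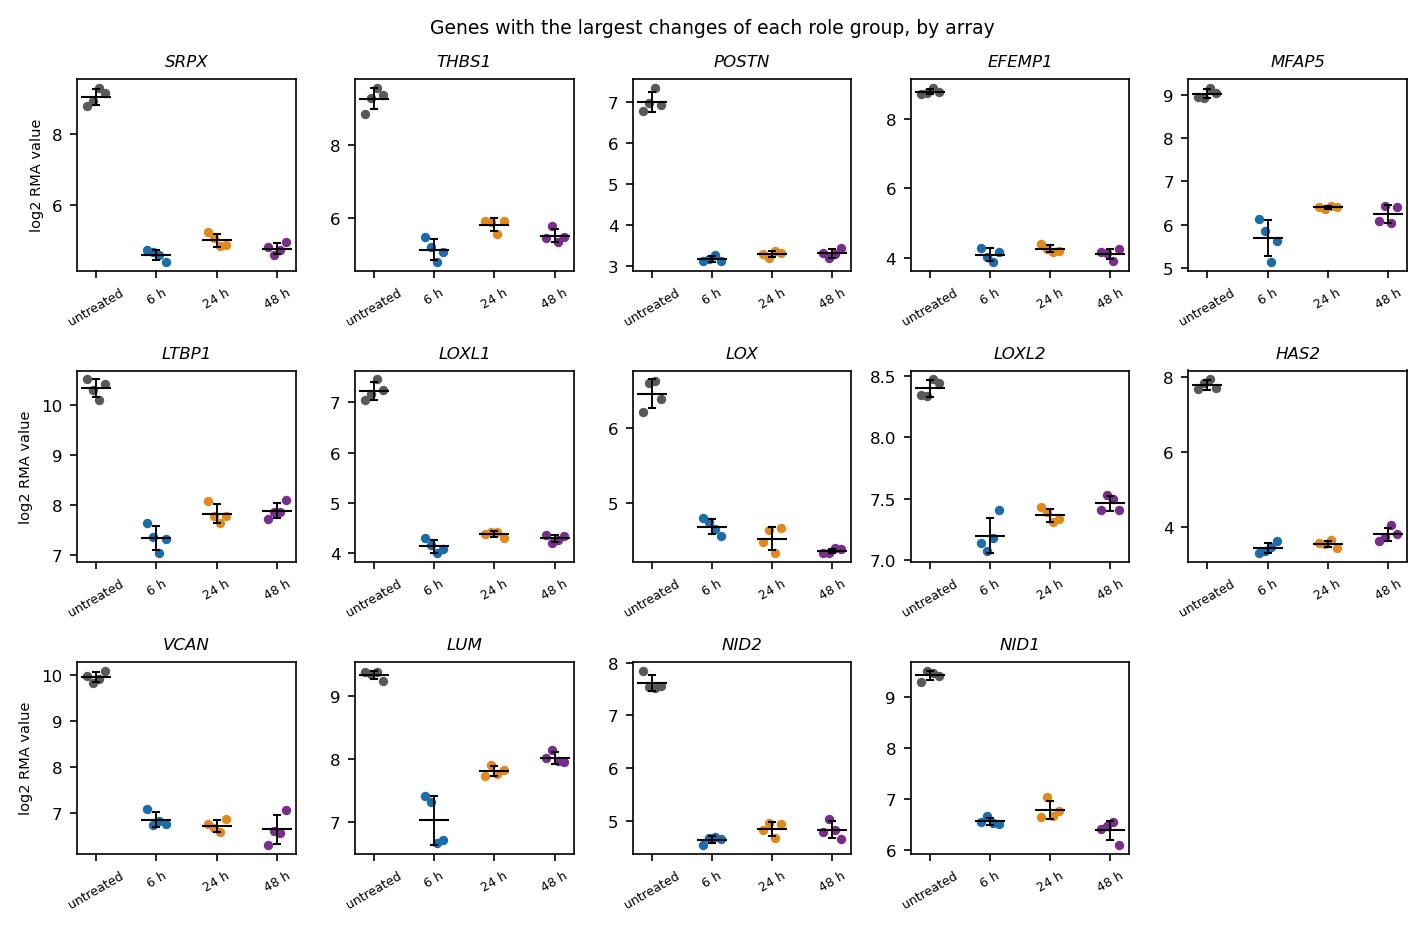
Each panel gives the log2 RMA value (vertical axis, with its own range in each panel) of 1 gene in the 4 arrays of untreated cells and of cells with 6, 24 and 48 h of risperidone; the horizontal line is the group mean and the bar its SD. In all 14 genes drawn, every treated array lies below every untreated array, with a change at 6 h of -4.70 ± 0.09 log2 units in EFEMP1 and of -1.19 ± 0.06 in LOXL2.

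Elastic fibre and microfibril genes were divided. Of 11, 10 were tested, 6 were lower at all 3 times, and the genes that rose all belong here. The median change was -1.11 log2 units at 6 h, -1.10 at 24 h and -1.05 at 48 h. EFEMP1, a fibulin of elastic fibre regions, had values of 4.29, 4.02, 3.88 and 4.16 at 6 h, against 8.72, 8.75, 8.90 and 8.78 in untreated cells. It had 4.40, 4.26, 4.16 and 4.20 at 24 h and 4.15, 4.13, 3.91 and 4.25 at 48 h. This was the largest measured fall of the 32 tested genes, although those of POSTN and HAS2 ended at the bottom of the scale, so that the order against these is not known. It came to 26-fold at 6 h, 23.1-fold at 24 h and 25.6-fold at 48 h, with log2 changes of -4.70 ± 0.09, -4.53 ± 0.09 and -4.68 ± 0.09. The treated means of EFEMP1 (4.09, 4.26 and 4.11) lay near the bottom of the scale, so these folds may be limited by it. MFAP5, a microfibril-associated glycoprotein, read 6.13, 5.85, 5.14 and 5.62 at 6 h, against 8.96, 8.94, 9.17 and 9.05 in untreated cells. The 24 h arrays read 6.40, 6.36, 6.43 and 6.42, and the 48 h arrays 6.09, 6.44, 6.04 and 6.42. MFAP5 fell, with changes of -3.35 ± 0.15 log2 units at 6 h, -2.63 ± 0.15 at 24 h and -2.78 ± 0.15 at 48 h, and its 6 h arrays were the most scattered of any group of the 32 genes (SD 0.419, n = 4).

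LTBP1, which holds latent TGF-beta on microfibrils and carries a cAMP response element in its window, stood at 7.63, 7.36, 7.03 and 7.31 at 6 h, against 10.51, 10.30, 10.10 and 10.41 in untreated cells. Its later levels were 8.08, 7.78, 7.63 and 7.78 at 24 h and 7.72, 7.85, 7.86 and 8.09 at 48 h. The 6 h arrays lay at or below those of the later times and no treated array reached the untreated ones, with changes of -3.0 ± 0.12, -2.51 ± 0.12 and -2.45 ± 0.12 log2 units. FBLN5, a fibulin needed for elastic fibres in mice, gave 4.02, 4.03, 3.81 and 3.73 at 6 h, against 5.34, 5.76, 5.54 and 5.74 in untreated cells. It gave 3.83, 4.01, 3.99 and 4.20 at 24 h and 3.88, 4.22, 3.78 and 4.19 at 48 h. FBLN5 was lower in every treated array, by changes of -1.70 ± 0.12, -1.59 ± 0.12 and -1.58 ± 0.12 log2 units. FBN1, fibrillin 1, the main subunit of microfibrils, changed by -1.37 ± 0.10 log2 units at 6 h, -1.45 ± 0.10 at 24 h and -1.43 ± 0.10 at 48 h. EFEMP2, a fibulin that helps lysyl oxidase reach elastin in mice, changed by -0.86 ± 0.08, -0.75 ± 0.08 and -0.68 ± 0.08 log2 units. FBN2, the other fibrillin listed, was dim, with arrays between 3.16 and 3.56 at 6 h, against 3.15 to 3.27 in untreated cells, and between 3.20 and 3.53 at 24 h and 3.13 and 3.37 at 48 h.

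The genes that rose did so by little. MFAP2, a microfibril-associated glycoprotein that, like MFAP5, binds fibrillin, had 8.83, 8.87, 8.84 and 8.99 at 6 h, against 8.46, 8.77, 8.58 and 8.57 in untreated cells. It had 8.91, 8.88, 8.99 and 8.83 at 24 h and 8.85, 8.83, 8.85 and 8.59 at 48 h. The 6 h and 24 h arrays all lay above the untreated ones, and at 48 h 1 array of 4 did not. MFAP2 rose by 0.29 ± 0.07 log2 units at 6 h (adjusted p = 0.00254), by 0.31 ± 0.07 at 24 h (adjusted p = 0.00148) and by 0.19 ± 0.07 at 48 h (adjusted p = 0.0335). The call at 48 h was lost after cyclic loess (change 0.10) and after a second quantile normalization (change 0.15). It was also lost when untreated replicate 1, 3 or 4 (0.14, 0.18 and 0.18) or 48 h replicate 1, 2 or 3 (0.16, 0.17 and 0.16) was left out, and in a fit of the compared arrays alone (adjusted p = 0.0827). With the probe sets of MFAP2 averaged, neither the 24 h change (0.12, adjusted p = 0.119) nor the 48 h change (0.10, adjusted p = 0.208) passed, and another probe set gave 0.08, -0.06 and 0.01 at 6, 24 and 48 h. ELN encodes elastin, the core protein of elastic fibres. Its arrays read 6.64, 6.78, 6.81 and 6.82 at 6 h, against 6.39, 6.53, 6.50 and 6.42 in untreated cells. Later readings were 6.58, 6.56, 6.62 and 6.50 at 24 h and 6.36, 6.16, 6.24 and 6.49 at 48 h. ELN rose by 0.30 ± 0.07 log2 units at 6 h (adjusted p = 0.000892), all 4 arrays being above the untreated ones, and its other probe sets gave 0.08 and 0.01 there. At 24 h the change was 0.11 ± 0.07 (95% interval -0.03 to 0.24, adjusted p = 0.19), and at 48 h -0.15 ± 0.07 (95% interval -0.29 to -0.01, adjusted p = 0.0633), a fall that passed the threshold after cyclic loess (-0.27), after a second quantile normalization (-0.17), with array weights (-0.20), without the dimmer 50% of genes (-0.15), and without untreated replicate 1 (-0.17) or 48 h replicate 4 (-0.21).

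FBLN1, a fibulin of elastic fibres and basement membranes, had 8.60, 8.41, 8.46 and 8.82 at 48 h, against 8.40, 8.48, 8.35 and 8.30 in untreated cells. At the earlier times it had 8.44, 8.45, 8.48 and 8.62 (6 h) and 8.57, 8.49, 8.55 and 8.51 (24 h). FBLN1 rose by 0.19 ± 0.07 log2 units at 48 h (adjusted p = 0.0368), with 2 arrays of 4 inside the untreated range. That call was lost after cyclic loess (change 0.10), after a second quantile normalization (0.16), with averaged probe sets (0.06), with array weights (0.12), in a fit of the compared arrays alone (adjusted p = 0.0935) and when any of 5 single arrays was left out (untreated replicates 1, 3 and 4 and 48 h replicates 1 and 4), the change then being 0.20, 0.18, 0.16, 0.18 and 0.11. FBLN2, a related fibulin, had 6.12, 6.31, 6.23 and 6.38 at 48 h, against 6.03, 6.07, 6.05 and 6.14 in untreated cells. It had 6.02, 5.91, 6.02 and 6.08 at 6 h and 5.97, 6.15, 6.07 and 6.12 at 24 h, inside or around the untreated range, where 1 of the 4 arrays of 48 h also lay. FBLN2 rose by 0.19 ± 0.06 log2 units at 48 h (adjusted p = 0.0116), and it did not pass after cyclic loess (change 0.07) or with averaged probe sets (0.10, adjusted p = 0.116), another probe set giving 0.01 (adjusted p = 0.927). The shares of all genes higher at each time stand above, so a count of 1 to 3 higher genes among 32 is below that background.

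All 4 lysyl oxidases, the enzymes that oxidise lysines so that collagen and elastin can be joined, were lower at 6 h, and 3 were lower at 24 and 48 h. The median change was -1.48, -1.48 and -1.52 log2 units. LOXL1, which acts on elastin in mice, stood at 4.30, 4.17, 4.0 and 4.09 at 6 h, against 7.05, 7.16, 7.46 and 7.25 in untreated cells. It stood at 4.38, 4.42, 4.42 and 4.31 at 24 h and 4.36, 4.21, 4.26 and 4.35 at 48 h. The groups lay far apart, and the changes were -3.09 ± 0.08, -2.85 ± 0.08 and -2.94 ± 0.08 log2 units. LOX, the founding member of the family, read 4.79, 4.74, 4.65 and 4.55 at 6 h, against 6.21, 6.60, 6.62 and 6.39 in untreated cells. It read 4.47, 4.63, 4.33 and 4.66 at 24 h and 4.33, 4.33, 4.39 and 4.38 at 48 h. LOX was lowest in the 48 h arrays, and fell, with changes of -1.77 ± 0.09 log2 units at 6 h, -1.93 ± 0.09 at 24 h and -2.10 ± 0.09 at 48 h.

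LOXL2, a family member with scavenger receptor domains, had 7.14, 7.08, 7.18 and 7.41 at 6 h, against 8.34, 8.33, 8.47 and 8.44 in untreated cells. The 24 h arrays had 7.43, 7.39, 7.31 and 7.34, and the 48 h arrays had 7.41, 7.53, 7.50 and 7.41. It was lower in every treated array, with changes of -1.19 ± 0.06, -1.03 ± 0.06 and -0.93 ± 0.06 log2 units. LOXL4, a relative of LOXL2, was dim in every group, with 3.39, 3.59, 3.49 and 3.68 at 6 h, against 3.83, 3.75, 3.79 and 3.79 in untreated cells. Later values were 3.68, 3.77, 3.71 and 3.67 at 24 h and 3.66, 3.60, 3.94 and 3.83 at 48 h. LOXL4 fell by 0.25 ± 0.07 log2 units at 6 h (adjusted p = 0.00649), and its changes at 24 h (-0.08 ± 0.07, adjusted p = 0.348) and 48 h (-0.03 ± 0.07, adjusted p = 0.718) did not pass. Its 6 h mean of 3.54 was below that bound too.

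Of the 6 proteoglycans and the hyaluronan synthase HAS2, 6 of 7 genes were lower at 6 and 24 h and 5 at 48 h, with median changes of -1.57, -1.48 and -1.31 log2 units. HAS2, the enzyme at the cell surface that makes long hyaluronan chains, read 3.31, 3.38, 3.47 and 3.63 at 6 h, against 7.68, 7.83, 7.94 and 7.70 in untreated cells. It read 3.59, 3.56, 3.65 and 3.45 at 24 h and 3.64, 3.73, 4.05 and 3.83 at 48 h. HAS2 fell 20.3-fold at 6 h, 18.7-fold at 24 h and 15.7-fold at 48 h on the linear scale (-4.34 ± 0.09, -4.23 ± 0.09 and -3.98 ± 0.09 log2 units), and its 6 h and 24 h means lay below the same bound as those of POSTN, so these folds depend on the bottom of the scale. VCAN, versican, the large proteoglycan that binds hyaluronan, had 7.09, 6.74, 6.81 and 6.75 at 6 h, against 9.99, 9.84, 9.91 and 10.10 in untreated cells. The arrays at 24 h had 6.75, 6.66, 6.57 and 6.86, and those at 48 h had 6.30, 6.61, 6.56 and 7.07. VCAN was lower in every treated array, with changes of -3.11 ± 0.12, -3.25 ± 0.12 and -3.33 ± 0.12 log2 units. Its difference between 48 h and 6 h did not pass the threshold, but it did with array weights (-0.30, adjusted p = 0.0318), without 48 h replicate 4 (-0.36, adjusted p = 0.0111) and on 1 of its 7 other tested probe sets (-0.33, adjusted p = 0.0484).

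LUM, lumican, a small leucine-rich proteoglycan that binds collagen fibrils, stood at 7.41, 7.32, 6.68 and 6.72 at 6 h, against 9.37, 9.35, 9.37 and 9.24 in untreated cells. Its levels were 7.74, 7.91, 7.77 and 7.83 at 24 h and 8.01, 8.15, 7.97 and 7.95 at 48 h. All treated arrays were below the untreated ones, least so at 48 h, with changes of -2.30 ± 0.13, -1.52 ± 0.13 and -1.31 ± 0.13 log2 units. DCN, decorin, a small proteoglycan of the same family, gave 4.13, 3.83, 3.75 and 3.72 at 6 h, against 5.24, 5.73, 5.65 and 5.07 in untreated cells. It gave 4.10, 4.12, 3.72 and 3.85 at 24 h and 3.86, 3.91, 4.08 and 4.09 at 48 h. The treated groups overlapped with each other and not with the untreated arrays, and DCN changed by -1.57 ± 0.14, -1.48 ± 0.14 and -1.44 ± 0.14 log2 units. BGN, biglycan, the closest relative of decorin, changed by -0.98 ± 0.16, -0.79 ± 0.16 and -0.80 ± 0.16 log2 units. FMOD, fibromodulin, of the same small proteoglycans, was dim and did not pass, with 0.16 ± 0.09 log2 units at 6 h (adjusted p = 0.171) and 0.21 ± 0.09 at 48 h (95% interval 0.02 to 0.41, adjusted p = 0.0624). The 48 h change of FMOD passed with array weights (0.28, adjusted p = 0.0259), without untreated replicate 1 (0.28, adjusted p = 0.0188) and with the replicate number as a block (0.21, adjusted p = 0.0413).

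NID1, NID2 and MATN2 were lower at all 3 times, with median changes of -2.86, -2.64 and -2.79 log2 units. The nidogens link laminin to collagen IV in basement membranes. NID1 read 6.56, 6.67, 6.53 and 6.52 at 6 h, against 9.30, 9.51, 9.48 and 9.41 in untreated cells. It read 6.66, 7.04, 6.68 and 6.78 at 24 h and 6.42, 6.47, 6.56 and 6.11 at 48 h. NID1 fell, with changes of -2.86 ± 0.09 log2 units at 6 h, -2.64 ± 0.09 at 24 h and -3.04 ± 0.09 at 48 h, and no treated array approached the untreated range. NID2, the second nidogen, had 4.54, 4.66, 4.69 and 4.65 at 6 h, against 7.85, 7.54, 7.52 and 7.55 in untreated cells. It had 4.82, 4.95, 4.67 and 4.93 at 24 h and 4.79, 5.04, 4.82 and 4.65 at 48 h. Its groups were likewise apart, with changes of -2.98 ± 0.09, -2.77 ± 0.09 and -2.79 ± 0.09 log2 units. MATN2, matrilin 2, a filament-forming adaptor of the matrix, gave 4.64, 4.61, 4.28 and 4.42 at 6 h, against 6.36, 5.90, 6.30 and 5.85 in untreated cells. The values 4.78, 4.83, 4.42 and 4.62 at 24 h and 4.80, 4.76, 4.36 and 4.67 at 48 h were as far below, and MATN2 changed by -1.62 ± 0.13, -1.44 ± 0.13 and -1.46 ± 0.13 log2 units.

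The exposure times were then set against each other. At 24 h against 6 h, 6 of the 32 genes were higher and 0 lower, where 1.55% of all genes tested were higher and 0.855% lower; 2.4% differed in either direction. By limma, 1 of the 32 was lower at an unadjusted p of 0.05. LUM was 0.78 ± 0.13 log2 units higher (adjusted p = 0.00327), MFAP5 0.72 ± 0.15 (adjusted p = 0.0167), and THBS1 0.69 ± 0.15 (adjusted p = 0.0198). SPOCK1 encodes testican 1, a secreted proteoglycan first known from testis and abundant in brain. Its arrays read 8.84, 8.72, 8.62 and 8.62 at 24 h, against 8.42, 8.09, 7.83 and 8.13 at 6 h, a difference of 0.58 ± 0.11 log2 units (adjusted p = 0.00675). LTBP1 (0.49 ± 0.12) and SPARC (0.30 ± 0.07) were the others. Leaving out 1 array (6 h replicate 3, or 24 h replicate 1, 2 or 4) brought the count to 3. LTBP1 and SPARC lost the call without any of 6 h replicates 2, 3 and 4 or 24 h replicates 1, 2 and 4, with differences of 0.38 to 0.50 for LTBP1 and 0.26 to 0.30 for SPARC. THBS1 lost it without 6 h replicate 3 or 4 or 24 h replicate 1, 2 or 4 (0.58 to 0.67), and with averaged probe sets (0.25, adjusted p = 0.103), its 2 other tested probe sets giving 0.19 and 0.14. In a fit of the compared arrays alone, MFAP5 (adjusted p = 0.0591) and LTBP1 (adjusted p = 0.0811) did not pass, and 2 other probe sets of MFAP5 gave 0.53 and 0.16, neither past the threshold. LTBP1 lost the call also after cyclic loess (0.49, adjusted p = 0.0598) and without the filter on dim genes (adjusted p = 0.0503), and 7 of the 8 other probe sets of SPARC did not pass (0.08 to 0.29).

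At 48 h against 24 h, 3 genes were higher and 2 lower, where 13.5% of all genes were higher and 15.1% lower, so the share of matrix genes that moved was below the background of 28.6%. SPOCK1 again was higher: its arrays read 9.25, 9.24, 9.11 and 9.52 at 48 h, with a difference of 0.58 ± 0.11 log2 units from 24 h (adjusted p = 0.000573). HAS2 was 0.25 ± 0.09 higher (adjusted p = 0.0413) and FBLN2 0.18 ± 0.06 higher (adjusted p = 0.0275), while NID1 (-0.40 ± 0.09, adjusted p = 0.00372) and ELN (-0.25 ± 0.07, adjusted p = 0.00766) were lower. The 24 h mean of HAS2 (3.56) lay below the bound of 3.65, at the bottom of the scale. Without 24 h replicate 1 the count was 3, HAS2 and FBLN2 having lost the call. HAS2 lost it also without 24 h replicate 2 or 4 or 48 h replicate 3 or 4 (0.17 to 0.25), and FBLN2 without 24 h replicate 3 or 48 h replicate 2 or 4 (0.14 to 0.18). With averaged probe sets, HAS2 (0.15, adjusted p = 0.126), FBLN2 (0.05, adjusted p = 0.521) and ELN (-0.08, adjusted p = 0.204) did not pass, and 2 other probe sets of NID1 missed the threshold (-0.22 and -0.04). With limma's trended robust spread, HAS2 (adjusted p = 0.0501) and FBLN2 (adjusted p = 0.073) missed the threshold. So did HAS2 with no filter on dim genes (adjusted p = 0.0519) and with joint adjustment over the 3 comparisons (adjusted p = 0.0522), and FBLN2 with the compared arrays alone (adjusted p = 0.058). FN1, which was not called here, passed under 7 alternatives at -0.29 to -0.24 log2 units.

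At 48 h against 6 h, 9 genes were higher and 2 lower, where 16.7% of all genes were higher and 17% lower (33.6% in either direction). The greatest difference was that of SPOCK1, 1.16 ± 0.11 log2 units (adjusted p = 6.03e-07). SPOCK1 had 9.40, 9.44, 9.31 and 9.21 in untreated cells, so its 48 h arrays overlapped with these, and the change against untreated cells was -1.22 ± 0.11 log2 units at 6 h, -0.64 ± 0.11 at 24 h and -0.06 ± 0.11 at 48 h (95% interval -0.28 to 0.16, adjusted p = 0.649). LUM (0.99 ± 0.13), MFAP5 (0.56 ± 0.15) and LTBP1 (0.55 ± 0.12) were also higher at 48 h than at 6 h, and all 3 remained lower than in untreated cells. HAS2, LOXL2, FBLN2, LOXL4 and SPARC were higher by 0.20 to 0.37 log2 units, and ELN (-0.45 ± 0.07) and LOX (-0.33 ± 0.09) were lower. The 6 h means of HAS2 (3.45) and LOXL4 (3.54) lay below the bound of 3.65, so their differences were read at the bottom of the scale. The call of SPARC was lost without any of 6 h replicates 2, 3 and 4 or 48 h replicates 2 and 4 (0.15 to 0.19). The call of LOXL4 was lost without 6 h replicate 1 or 3 or 48 h replicate 3 or 4 (0.16 to 0.20), and LOXL4 (adjusted p = 0.0789) and SPARC (adjusted p = 0.0733) did not pass in a fit of the compared arrays alone. With averaged probe sets LOX (-0.08, adjusted p = 0.248), LOXL2 (0.07, adjusted p = 0.426), FBLN2 (0.05, adjusted p = 0.493) and SPARC (0.13, adjusted p = 0.0569) lost the call, and the other tested probe sets of ELN turned the direction (0.02 and 0.06). THBS1, which was not called here, passed under 7 alternatives at 0.36 to 0.49 log2 units.

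**Figure D3:**
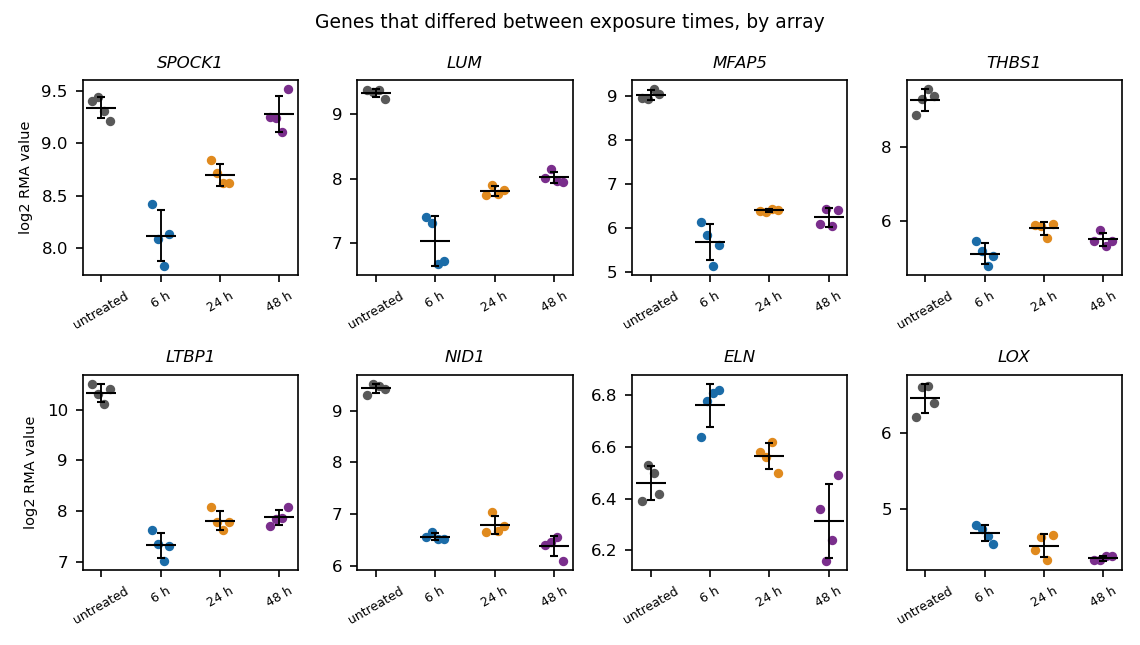
Each panel gives the log2 RMA value (vertical axis, with its own range in each panel) of 1 gene in each array of untreated cells and of cells with 6, 24 and 48 h of risperidone, with the group mean as a line and the SD as a bar (4 arrays a group). SPOCK1 lies between 7.83 and 8.42 at 6 h and between 9.11 and 9.52 at 48 h, against 9.21 to 9.44 in untreated cells, while LUM, MFAP5, THBS1, LTBP1, NID1 and LOX stay below the untreated arrays at every time.

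Other genes of the same pathways were taken from 6 lists that together name 109 genes, 81 of them tested. Of these, 37 were lower and 15 higher at 6 h, 37 and 12 at 24 h, and 39 and 14 at 48 h, with medians of -0.11, -0.12 and -0.15 log2 units. Over all genes tested, 16.7% were lower and 36.6% higher at 6 h, 16.9% and 35.3% at 24 h, and 21% and 36% at 48 h. Among the other adhesive and matricellular genes, 6 of 11 were lower and 1 higher at 6 h. CCN2, a matricellular protein induced by TGF-beta, changed by -5.62 ± 0.17 log2 units at 6 h. Its 6 h mean of 3.18, against 8.79 in untreated cells, was at the bottom of the scale. All treated arrays of CCN2 lay at 3.56 or less, so it passed the filter on dim genes only through its untreated arrays. CCN1, its relative, changed by -3.93 ± 0.17 log2 units, and TGFBI, a TGF-beta-induced adhesive protein, by -2.05 ± 0.10. Among the other elastic fibre genes, 6 of 11 were lower and 2 higher at 6 h. LTBP2, related to LTBP1, changed by -2.46 ± 0.10 log2 units, ADAMTSL1, an ADAMTS-like glycoprotein, by -1.69 ± 0.11, and EMILIN1, a glycoprotein of elastic fibres, by -0.50 ± 0.04.

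Of 18 other proteoglycans, 6 were lower and 6 higher at 6 h, where 16.7% of all genes tested were lower and 36.6% higher. SDC4, the transmembrane syndecan of focal adhesions, fell by 2.24 ± 0.09 log2 units at 6 h. GPC2, a membrane-anchored glypican of the nervous system, rose by 0.44 ± 0.04 log2 units at 6 h and by 0.85 ± 0.04 at 48 h. GPC6, another glypican, rose by 0.20 ± 0.05 at 6 h and by 0.71 ± 0.05 at 48 h, and at 24 h its change of 0.12 ± 0.05 had an adjusted p of 0.0771. Of 10 genes of hyaluronan handling, 6 were lower and 0 higher at 6 h, also at an unadjusted p of 0.05 from limma. At 48 h 1 was higher. CEMIP, 1 of the 10, had arrays between 3.41 and 3.65 at 6 h, against 3.82 to 4.42 in untreated cells. Its treated arrays together averaged below 3.65, so it passed the filter on dim genes only through its untreated arrays. CD44, the hyaluronan receptor, changed by -3.43 ± 0.11 log2 units at 6 h, HAS3, a second hyaluronan synthase, by -0.91 ± 0.09, and CEMIP2, a hyaluronan-degrading enzyme of the cell surface, by -0.54 ± 0.10.

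Of 25 genes that build glycosaminoglycan chains, 10 were lower and 6 higher at 6 h, beside 16.7% and 36.6% of all genes tested. HS6ST2, a heparan sulphate sulphotransferase, rose by 1.61 ± 0.05 log2 units at 6 h, by 1.60 ± 0.05 at 24 h and by 2.39 ± 0.05 at 48 h. EXT1, a subunit of the heparan sulphate polymerase, changed by -1.19 ± 0.06 at 6 h and -1.48 ± 0.06 at 48 h, and DSE, the dermatan sulphate epimerase, by -1.13 ± 0.07 and -1.54 ± 0.07. Of 6 other basement membrane and matrilin genes, 3 were lower and 0 higher at 6 h, also at an unadjusted p of 0.05 from limma. MATN3, matrilin 3, changed by -1.62 ± 0.10 log2 units, FRAS1, a protein of epithelial basement membranes, by -1.75 ± 0.14, and PXDN, the enzyme peroxidasin that joins collagen IV, by -0.41 ± 0.05.

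**Figure D4:**
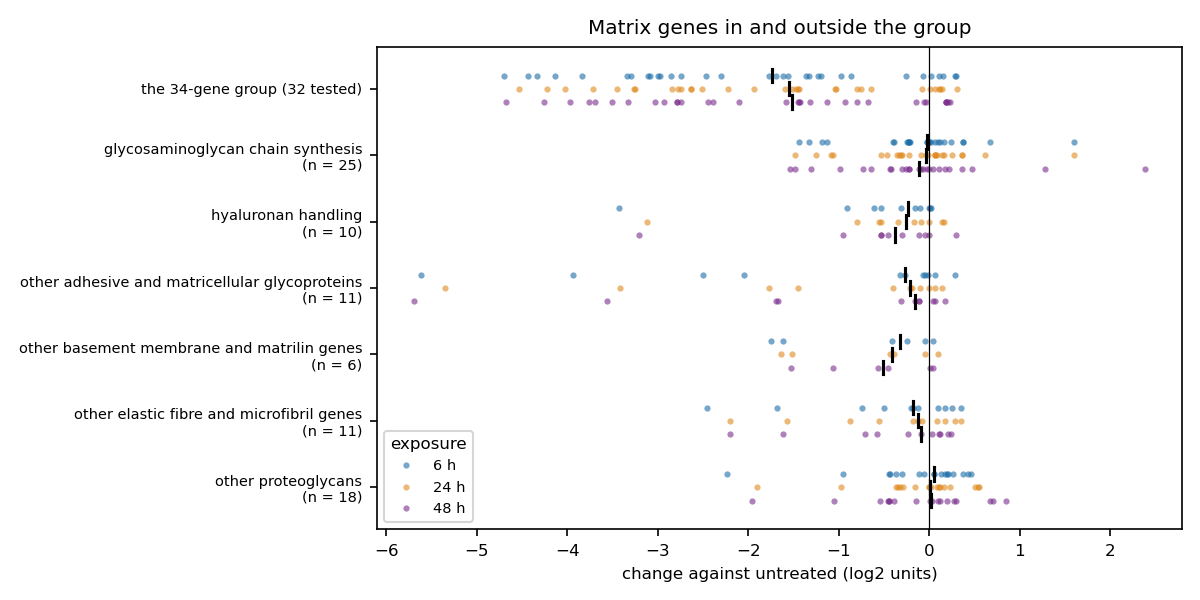
Each point is the log2 change of 1 tested gene in risperidone-treated against untreated cells at 6, 24 or 48 h, and each black bar is the median of its row. The medians of the 34-gene group lie between -1.74 and -1.52 log2 units, and those of the 6 other lists between -0.51 and 0.06. The group and the lists were chosen with earlier results of these data known.

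Probe sets not used above give a second reading of the same genes. The 32 tested genes have 75 other tested probe sets. Of the 59 that belong to genes lower at 6 h, 52 were lower too and 7 were not called. The 7 belong to BGN (4), LOX (2) and NID1 (1), and their means in untreated cells lay between 3.60 and 4.18, so they read these genes near the bottom of the scale. At 24 h 52 of the 59 were lower and 1, of LOX, was higher by 0.23 log2 units, and at 48 h 53 were lower and 6 not called. For ECM1, which did not pass, another probe set was lower, with changes of -0.54, -0.52 and -0.57 log2 units at 6, 24 and 48 h. For FBLN1, 1 other probe set gave -0.20 at 24 h and -0.23 at 48 h, both past the threshold. The direction of ECM1 and FBLN1 therefore differed between probe sets.

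**Figure D5:**
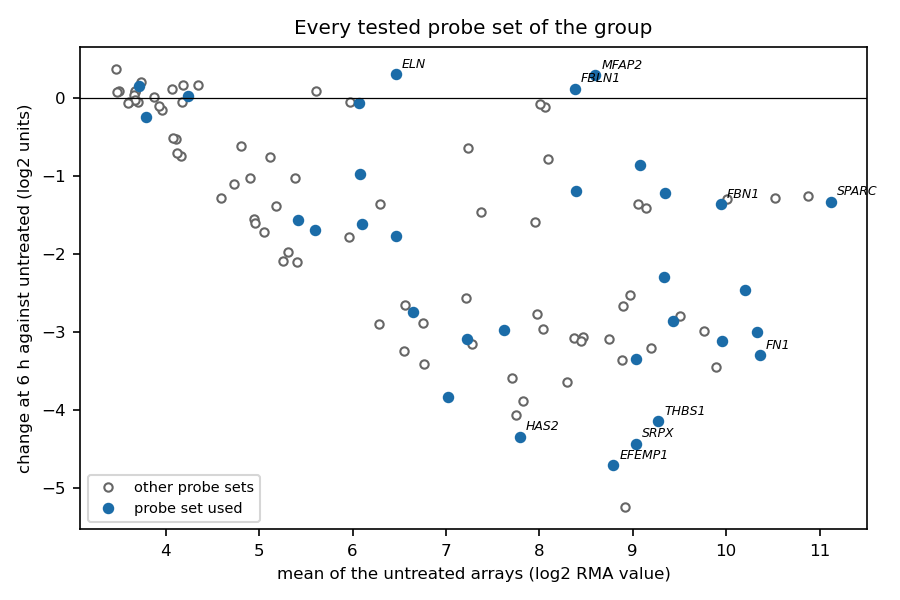
Each point is a tested probe set of the 32 genes, with the mean of the 4 untreated arrays on the horizontal axis (log2 RMA value) and the change at 6 h against untreated cells on the vertical axis (log2 units). Filled points are the probe sets used for the values above and open circles the 75 others. Probe sets of the lowest untreated levels lie near 0. The largest fall, -5.24, is that of an EFEMP1 probe set with an untreated mean of 8.92. The probe set of highest untreated mean, of SPARC (11.12), changed by -1.33.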

How the data were processed

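Total RNA of 16 SK-N-SH samples was measured on 1-colour Human Genome U219 arrays. The authors deposited log2 values, 1 per probe set and array, made with robust multi-array average (RMA), per the submitters' processing notes. RMA equalises the distributions of the arrays, so a change of total RNA per cell cannot be seen. Which software ran it is not given in the sources used here.

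Of 49386 probe sets, 45253 had 1 gene symbol in GEO's platform annotation of 2019. All 34 genes matched RefSeq and 0 symbols changed. Each gene was read from its single-symbol probe set of highest mean, control probe sets were left out, and the lowest 25% of genes were set aside, which left 13680 of 18239. A limma fit (version 3.58.1, R 4.3.3) of all 16 arrays with 1 mean per group gave two-sided moderated tests, with Benjamini-Hochberg adjustment inside each comparison and a threshold of 0.05. Levels of different probe sets were set together only in the summed linear levels of marker lists and in calling genes dim or bright.

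The 34 genes and all gene lists were chosen with earlier results of these data known. Values of every array were given for up to 4 genes per role group with the largest mean change, for every gene that rose, and for the 4 genes that differed most between each pair of times. From each list of other matrix genes, the 3 with the smallest p of the moderated F test were named. Other settings tried were averaging or swapping a gene's probe sets, 2 other filters on dim genes (none, or 50% left out), 3 rescalings (array medians, a repeat of quantile normalization, cyclic loess), limma's trend, robust and array weight options, a block for the replicate number, fits on the compared arrays alone, joint adjustment, at least 1.5-fold change, and leaving out each array.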

Additional observations from a re-analysis of the deposited data

Results flagged for a closer look

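In 6 of the 136 groups of 4 arrays looked at (34 genes in 4 groups), 1 array stood apart from the other 3 by Dixon's test, where chance gives about 1 in 20. THBS1 read 5.55 in 24 h replicate 3, and the others of that group lay between 5.87 and 5.92. MFAP2 read 8.59 in 48 h replicate 4, and the others lay between 8.83 and 8.85. EFEMP2 read 8.54 in 24 h replicate 1, and the others lay between 8.24 and 8.28. FMOD read 4.20 in 48 h replicate 1, and the others lay between 3.82 and 3.84. In untreated cells, LUM read 9.24 in replicate 4 (the others 9.35 to 9.37), and NID2 read 7.85 in replicate 1 (the others 7.52 to 7.55).

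The change against untreated cells differed between exposure times for 13 genes, by limma's test of the times against each other (adjusted p under 0.05). At 24 h against 6 h the differences in log2 units were 0.688 for THBS1, 0.295 for SPARC, 0.718 for MFAP5, 0.485 for LTBP1, 0.780 for LUM and 0.582 for SPOCK1. At 48 h against 24 h they were -0.252 for ELN, 0.182 for FBLN2, 0.580 for SPOCK1, 0.250 for HAS2 and -0.400 for NID1. At 48 h against 6 h they were 1.162 for SPOCK1, 0.987 for LUM, 0.562 for MFAP5, 0.548 for LTBP1, 0.365 for HAS2, 0.260 for LOXL2, 0.252 for FBLN2, 0.220 for LOXL4, 0.203 for SPARC, -0.325 for LOX and -0.450 for ELN. SPOCK1 is the gene that differed in all 3 of these comparisons. The differences of HAS2 and LOXL4 were read near the bottom of the scale.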

How the results depend on the processing

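Of 75 falls against untreated cells, 74 kept their direction and their side of the threshold in all 18 or 19 alternatives that gave a value, other probe sets aside. The exception was LOXL4 at 6 h, lost when the probe sets of a gene were averaged. Where the dimmer 50% of genes were left out, 16, 15 and 17 of the 34 genes were called at 6, 24 and 48 h, since 18 were tested, and 34, 32 and 35 of the other matrix genes. A minimum change of 1.5-fold gave 1528, 1557 and 2093 genes of all tested and 20, 19 and 24 other matrix genes. Between times it gave 46 (24 h against 6 h), 229 (48 h against 24 h) and 356 (48 h against 6 h) of all genes, 2, 3 and 4 other matrix genes, and 3, 0 and 2 of the 34. At 24 h against 6 h, array weights gave 839 genes and 12 other matrix genes, and joint adjustment over the 3 comparisons gave 818 and 12, where 329 and 6 were called. Averaged probe sets gave 2 of the 34 at 48 h against 24 h. The cause was not tested.

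With each array left out, the count of the 34 genes called was 28 to 28 at 6 h, 26 to 26 at 24 h and 25 to 27 at 48 h, and 3 to 6, 3 to 5 and 9 to 11 between times (24 h against 6 h, 48 h against 24 h, 48 h against 6 h). All genes gave 6643 to 7095, 6551 to 7036, 7408 to 7612, 163 to 309, 3323 to 3856 and 3987 to 4423 in the same order, and the other matrix genes 45 to 52, 44 to 48, 50 to 53, 3 to 7, 13 to 22 and 26 to 32. The replicate number as a block gave 28, 26 and 28 of the 34 genes against untreated cells and 7325, 7187 and 7830 of all genes. The numbers share only a number, with correlations of same-numbered deviations from -0.152 to 0.181.

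Other probe sets turned the direction in these cases (log2 units). Against untreated cells, ECM1 was -0.535, -0.523 and -0.568 at 6, 24 and 48 h, and LOX was 0.158, 0.225 and 0.033. MFAP2 was -0.063 at 24 h. FBLN1 was -0.202 at 24 h and -0.230 and -0.028 at 48 h. BGN was 0.030 at 24 h and 0.060 and 0.120 at 48 h. At 48 h against 24 h, ELN was 0.100 and FBLN2 -0.080. At 48 h against 6 h, ELN was 0.015 and 0.060, LOX 0.065 and 0.015, FBLN2 -0.150 and SPARC -0.197. The cause was not tested. Folds of POSTN, HAS2 and LOXL4 are limited by the bottom of the scale. The 6 h means of DCN, FBLN5, THBS2, EFEMP1 and LOXL1 (3.86 to 4.14) lay near it, so their folds may be limited too.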
